A study of Drosophila melanogaster and Drosophila simulans and Drosophila yakuba with 27 samples.

Results

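Gene expression was compared between Drosophila mojavensis and Drosophila virilis in 3 larval tissues, gene by gene. The members are the rows of the authors' normalised expression table with a value in all 6 libraries of these species and a value of at least 1 in 2 or more of them, which left 8872 of the 15439 rows. A further 2629 rows with values in all 6 libraries were under that minimum, and 3808 rows had no value in at least 1 of the 6. Rows listed at 0 in every library of one species were set apart, 95 for D. mojavensis and 35 for D. virilis, because such a row can stand for a gene missing from a gene model as well as for an unexpressed gene.

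The series holds 27 RNA-seq libraries from 9 lines of 8 Drosophila species, with 1 library for each line and tissue. Eye-antennal imaginal discs, wing imaginal discs and brains were dissected from wandering larvae of the last instar, all raised at the same temperature on standard food. The D. mojavensis libraries came from stock UCSD:15081-1352.22 and the D. virilis libraries from stock UCSD:15010-1051.118, both labelled wild-type. With 1 library per tissue and species, the 3 tissues served as the replicates of a species, so a p-value measures how steady a difference was across tissues, and each species stands for 1 stock.

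Both species belong to the subgenus Drosophila, D. mojavensis to the repleta group and D. virilis to the virilis group. D. mojavensis breeds in rotting cactus of North American deserts, while D. virilis is associated with sap and decaying bark. Imaginal discs are epithelial sacs that form adult structures at metamorphosis, and the eye-antennal disc yields the eye, antenna and much of the head capsule. The larval brain holds dividing neuroblasts beside functional larval neurons, and the hormone-producing ring gland lies on it.

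The libraries held 3642547, 4335120 and 4943047 reads assigned to genes in D. mojavensis (eye-antennal disc, wing disc and brain) and 9476075, 10219960 and 9690840 in D. virilis, so low levels were measured more coarsely in D. mojavensis. The unit of the table, called signal here, is the read count divided by the coding length of the species' own gene model and by a library factor. The summed markers of the eye-antennal disc, wing disc and brain were each highest in the library of that tissue in both species. The eye-antennal sum was 479 and 415 in the eye-antennal discs of D. mojavensis and D. virilis, against 209 and 273 in the brains. Its member toy went the other way, at 87.5 and 119 in these discs and 112 and 177 in the brains. The member ey was close in D. virilis, at 42.3 in the disc and 38.2 in the brain. The members eya, so, gl and ato were highest in the eye-antennal discs. The wing selector gene vg had a signal of 71.2 and 68.3 in the wing discs of D. mojavensis and D. virilis and of at most 5.94 in the other tissues, and hug, a neuropeptide gene, had 63.4 and 30.5 in the brains and at most 1.33 elsewhere. Markers of other tissues were not equal. The summed wing disc markers stood at 43.0 in the D. mojavensis eye-antennal disc and 5.74 in that of D. virilis, and the summed brain markers at 154 and 53.3. Most of the brain sum was elav, at 116 and 41.8, a gene of neurons in general and not of the brain alone. The neuropeptide gene hug was at 0.493 and 1.33 in these 2 libraries. The larval fat body markers Lsp1beta, Lsp2 and Fbp1 summed to 3743, 1598 and 21.4 in D. mojavensis and to 867, 3441 and 712 in D. virilis, in the order eye-antennal disc, wing disc, brain. The part of these markers in the differences below was not tested. In dissected tissue, more cells of a type and more RNA per cell cannot be told apart.

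Over the 3 tissues, 1169 genes (13.2% of those tested) differed between the species at an adjusted p under 0.05 (limma with tissue as a block and Benjamini-Hochberg adjustment over all 8872 rows). D. mojavensis was higher for 410 genes (4.62%) and lower for 759 (8.56%). The median log2 difference over all tested genes, D. mojavensis minus D. virilis, was -0.02, so the excess of lower calls did not come with a shift of the typical gene. The median absolute difference was 0.42 on the log2 scale over tested genes and 1.29 over called genes, with a median standard error of 0.23. At least a 2-fold difference was seen in 274 of the higher and 527 of the lower genes, and at least 8-fold in 29 and 53. All 1169 had a difference of the same sign in the 3 tissues, as did 56.8% of the tested genes. The signal of the 3 libraries of one species lay wholly outside that of the other for 957 called genes, against 2678 of all tested genes (30.2%). Because some rows share a gene of the species, the called rows stand for 1112 distinct gene pairs. The count fell most without an eye-antennal disc, to 69 without that of D. virilis and 133 without that of D. mojavensis. The count was 527 and 561 without the wing disc of D. mojavensis or D. virilis, and 780 and 748 without the brain. With tissue as a block, leaving out 1 library takes its tissue out of the difference. Both fits of a tissue therefore share their estimates. Rows at an unadjusted limma p under 0.05 numbered 3016 with all 6 libraries. They numbered 2567 and 2588 without the D. virilis or D. mojavensis eye-antennal disc, and 2178 and 2162 without the wing disc. Of the 7363 genes whose read counts could be recovered in both species, edgeR's quasi-likelihood test with coding length as an offset called 507 (6.89%), with 195 higher (2.65%) and 312 lower (4.24%), of which 486 were also limma calls. Without the length offset it called 721 (9.79%), with 299 higher (4.06%) and 422 lower (5.73%). DESeq2 on the same counts without length called 1432 (19.4%), with 744 higher (10.1%) and 688 lower (9.34%), so the excess of lower calls was not seen with that tool. A limma fit over all 27 libraries, which estimates the spread from every line, called 3016 of 7759 genes (38.9%), with 1338 higher (17.2%) and 1678 lower (21.6%).

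**Figure D1:**
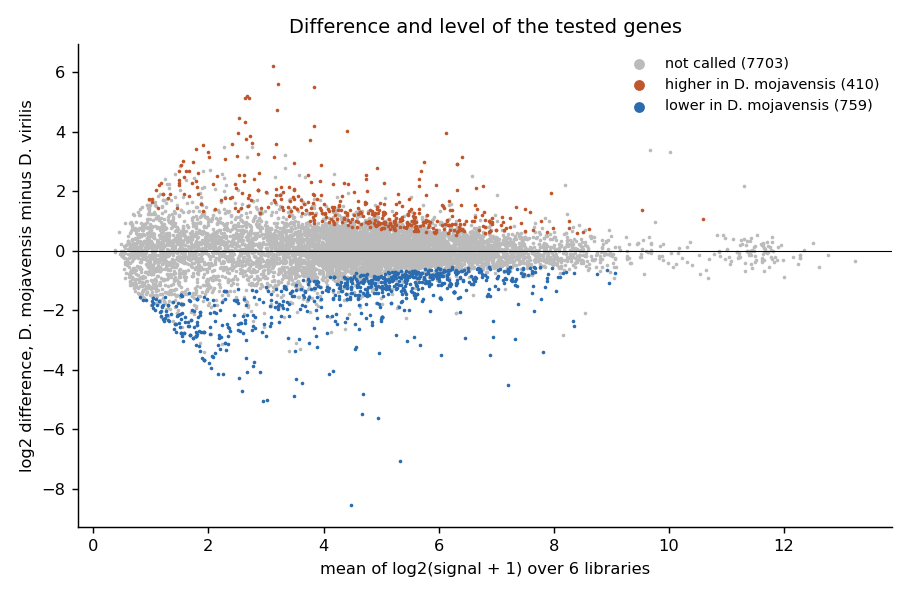
Each point is a tested gene, with its mean log2(signal + 1) over the 6 libraries on the x axis and its log2 difference between D. mojavensis and D. virilis on the y axis. Orange points are the 410 genes called higher and blue points the 759 called lower in D. mojavensis, and grey points were not called.

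The genes with the largest higher signal in D. mojavensis were mostly genes near 0 in D. virilis. Like a row at 0, a value near 0 can stand for a gap in a gene model as well as for low expression, which was not tested. Read counts were not recovered in D. virilis for Muc14A, l(1)G0156, Strn-Mlck, Gint3, Pect and rdhB. The main count tests therefore left these genes out. Muc14A, which encodes a mucin-like protein, had a signal of 120, 43.6 and 76.4 in the D. mojavensis eye-antennal disc, wing disc and brain, and of 0, 0 and 0.0109 in D. virilis. No values of the species overlapped, and the log2 difference was 6.22 (SE 0.36, n = 3 tissues, limma adjusted p = 0.00684). In 4 other lines with a value for Muc14A, the signal ran from 0 to 79.9.

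l(1)G0156, now named Idh3a, encodes a subunit of the mitochondrial NAD-dependent isocitrate dehydrogenase of the citric acid cycle. Its signal was 85.4, 89.8 and 113 in D. mojavensis and 0.559, 1.74 and 1.21 in D. virilis (log2 difference 5.51, SE 0.25, limma adjusted p = 0.00405). In the other 7 lines it lay between 58.6 and 154, so the D. virilis libraries stood below every other line and those of D. mojavensis among them. pix, whose product is an ABC-family ATPase that acts in ribosome recycling, showed the same layout with more reads behind it. It had 285, 318 and 230 in D. mojavensis and 23.6, 16.0 and 12.5 in D. virilis, with 160 to 366 in the other lines, at coding lengths of 1833 bases in both species (log2 difference 3.96, SE 0.18, limma adjusted p = 0.00405). The D. virilis values for pix rest on 420, 307 and 241 reads. Pect, an enzyme of phosphatidylethanolamine synthesis, was at 56.3, 27.4 and 141 in D. mojavensis and at 1.65, 2.38 and 3.06 in D. virilis, which again was below all 7 other lines.

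Strn-Mlck, a muscle kinase gene related to myosin light chain kinase, was at 37.9, 56.9 and 25.2 in D. mojavensis and at 0.0290, 0.0338 and 0.101 in D. virilis (log2 difference 5.21, SE 0.34, limma adjusted p = 0.00845). Klp3A, a kinesin needed for the central spindle and cytokinesis, was at 21.4, 35.7 and 18.5 against 0.825, 0.902 and 0.474, the latter from 29, 34 and 18 reads. obst-A, which encodes a chitin-binding protein that organises cuticle, was at 507, 412 and 76.7 against 56.6, 40.8 and 8.66. Its log2 difference was 3.15 with the smallest error among these leading genes (SE 0.13, limma adjusted p = 0.00364), and both species followed the same order of tissues. Dyrk3, a protein kinase gene, was at 159, 147 and 141 against 11.8, 17.9 and 27.6, on coding lengths of 1911 and 3885 bases, and its reads were 1115, 1207 and 1505 against 446, 726 and 1128. The other leading genes in this direction were Gint3 (log2 difference 5.14) and rdhB (3.77). Among genes known only by a CG number when the table was made, CG32364, now named tut, CG7966 and CG9631 led, with log2 differences of 5.62, 5.14 and 4.73, and all 3 were above every other line in D. mojavensis.

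**Figure D2:**
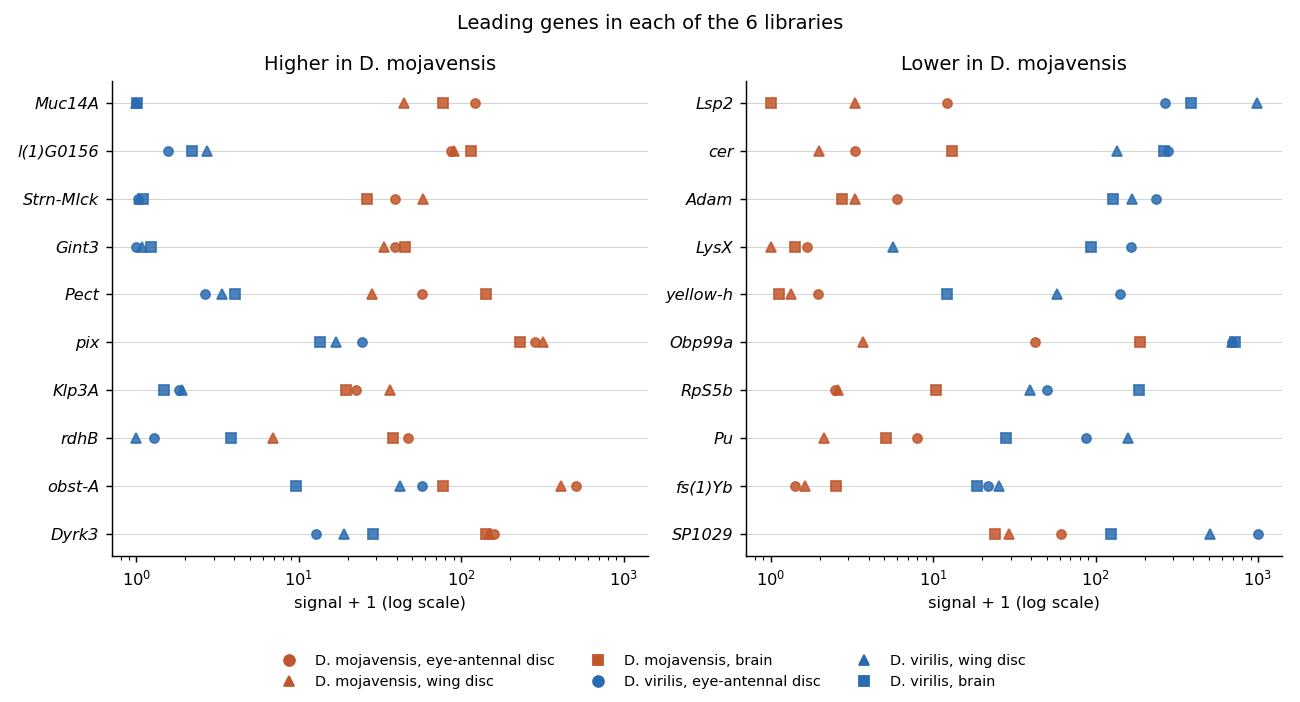
Signal + 1 on a log axis for the 10 leading genes in each direction, with 1 symbol per library (orange for D. mojavensis, blue for D. virilis, shapes for tissues). In every row the 3 orange and 3 blue symbols do not overlap.

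Among the genes with a name that were lower in D. mojavensis, Lsp2 differed most. It encodes a larval serum protein made by the fat body and stored for metamorphosis. Its signal was 11.2, 2.31 and 0 in D. mojavensis and 266, 977 and 386 in D. virilis (log2 difference -7.08, SE 0.84, limma adjusted p = 0.0166). Other abundant fat body genes took another course. Lsp1gamma was at 2650, 736 and 12 in D. mojavensis against 98.1, 398 and 404, and Fbp1, the receptor for serum protein uptake, at 3463, 1539 and 18.7 against 480, 2294 and 118, with the order of the species changing between tissues. Neither passed the test, and the lines other than these 2 species ranged from 0.255 to 4278 for Lsp2. Of 13 fat body rows tested, 2 were called, both lower (Lsp2 and the transferrin gene Tsf1), a share of 15.4% that is near the 13.2% of all genes. The median log2 difference of the list was -0.88 against -0.02 for all genes, and it ran from -1.58 to -0.32 with 1 library left out.

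cer, whose product is a small cysteine protease inhibitor of the crammer type, was at 2.30, 0.979 and 12.1 in D. mojavensis and at 279, 135 and 262 in D. virilis (log2 difference -5.61, SE 0.43, limma adjusted p = 0.00999). Adam, now named eIF3j, a subunit gene of translation initiation factor 3, was at 4.97, 2.28 and 1.77 against 235, 167 and 127. For both genes it was D. mojavensis that stood outside the other 7 lines, which ran from 55.7 to 394 for cer and from 104 to 172 for Adam. The reverse held for Pu, the gene of GTP cyclohydrolase, the first enzyme of pteridine synthesis. Its signal was 6.93, 1.12 and 4.13 in D. mojavensis and 86.2, 158 and 26.9 in D. virilis, and D. virilis lay above the other lines' range of 2 to 25.6 (log2 difference -4.04, SE 0.73, limma adjusted p = 0.0325). SP1029, a membrane aminopeptidase gene, was at 60.4, 28.2 and 23.1 against 999, 508 and 123, and D. virilis was again above all other lines.

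RpS5b, the less widely used copy of the gene for ribosomal protein S5, was at 1.49, 1.59 and 9.35 in D. mojavensis and at 49.3, 38.5 and 184 in D. virilis (log2 difference -4.14, SE 0.21, limma adjusted p = 0.00474). It was the only one called among 78 cytoplasmic ribosomal protein rows (1.28%, beside 13.2% of all genes), whose median log2 difference was -0.01. LysX, a lysozyme gene, was at 0.667, 0 and 0.413 against 164, 4.66 and 92.7. yellow-h, a member of the yellow family, was at 0.963, 0.328 and 0.127 against 140, 56.9 and 11.1. Obp99a, an odorant-binding protein gene, was at 41.2, 2.70 and 187 against 693, 686 and 716, and lay at the edge of the threshold (log2 difference -4.50, SE 1.02, limma adjusted p = 0.0498). fs(1)Yb, which acts in the piRNA pathway of the ovary, was at 0.420, 0.627 and 1.52 against 20.8, 24.6 and 17.5. CG12947 had the largest difference of all rows (log2 difference -8.55), but its D. mojavensis values were those of the row CG6569 as well. Among rows with only a CG number and a mean signal of at least 10, CG34291 and CG15369 followed at -4.87 and -4.81. Read counts were not recovered in D. mojavensis for Lsp2, cer, Adam, LysX and yellow-h, so the main count tests left them out. A gap in a gene model was not tested for these genes either. Of the 20 leading genes with a name, all stayed past the threshold without any one wing disc or brain, 12 did without the D. mojavensis eye-antennal disc and 11 without that of D. virilis.

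The lists of pathways and cell types held 962 distinct tested rows in 45 lists, and 116 of these were called, beside 1169 of all 8872 tested rows. Among detoxification genes, most calls were lower in D. mojavensis. Glutathione S-transferases join glutathione to foreign and damaged compounds, and 6 of their 8 tested rows were lower and none higher (75%, beside 13.2% of all genes), with a median log2 difference of -2.88. The rows GstE5, GstE6, GstE7 and GstE8 carry a single gene of each species, so the calls stand for 3 of 5 distinct gene pairs. The list median is the value of this shared gene. GstD1 was at 125, 241 and 81.5 in D. mojavensis and at 1361, 930 and 392 in D. virilis (log2 difference -2.54, SE 0.31, limma adjusted p = 0.0176). Its species ranges did not overlap. GstE2 was at 5.77, 0 and 15.2 against 68.8, 6.10 and 186, lower in each tissue although the ranges overlapped. The shared GstE5 to GstE8 gene was at 0, 0.348 and 0.539 against 10.1, 13.1 and 4.32. Read counts were not recovered in D. mojavensis for GstE2 or this shared gene, and a gap in a gene model was not tested. edgeR with length as an offset tested 3 rows of the list and called 1 of them lower, beside 6.89% of all genes. The median log2 difference of these 3 rows was -0.47. The abundant GstS1 did not pass the test, at 357, 423 and 175 against 215, 339 and 168, nor did GstE1. Leaving out 1 library at a time left between 1 (without the D. virilis eye-antennal disc) and 6 of these calls, and the list median stayed between -3.26 and -2.59.

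Cytochrome P450 enzymes oxidise hormones, lipids and foreign compounds, and 8 of their 35 tested rows were lower and 2 higher (28.6% called, beside 13.2% of all genes), with a median log2 difference of -0.87. The list also took in Cyp1, a cyclophilin gene and no P450, which was not called, and Cyp12a4 and Cyp12a5 are a single gene in both species. Cyp301a1, which acts in cuticle formation, was at 9.08, 9.08 and 4.75 in D. mojavensis against 37.4, 49.3 and 27.1 (log2 difference -2.18, SE 0.21, limma adjusted p = 0.0117). Cyp6a2, a gene tied to insecticide resistance in D. melanogaster, was at 0.179, 0 and 0.118 against 7.47, 5.58 and 1.99. Cyp316a1 and Cyp313b1 went the other way, Cyp316a1 from 0.276, 0.322 and 0.447 in D. virilis to 20.8, 20.9 and 2.69 in D. mojavensis. At most 5 P450 rows were called with any 1 library left out, and none without the D. virilis eye-antennal disc. Of 4 UDP-glycosyltransferases tested, which attach sugars to small molecules, Ugt36Bb and Ugt58Fa were lower (50% called, beside 13.2% of all genes). Read counts were not recovered in D. mojavensis for Ugt36Bb. edgeR with length as an offset tested 2 of these genes and called 1 lower, with a median log2 difference of 0.11. Fat body markers, which come from a tissue rich in these enzymes, differed between libraries as given above, and their part in these results was not tested.

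**Figure D3:**
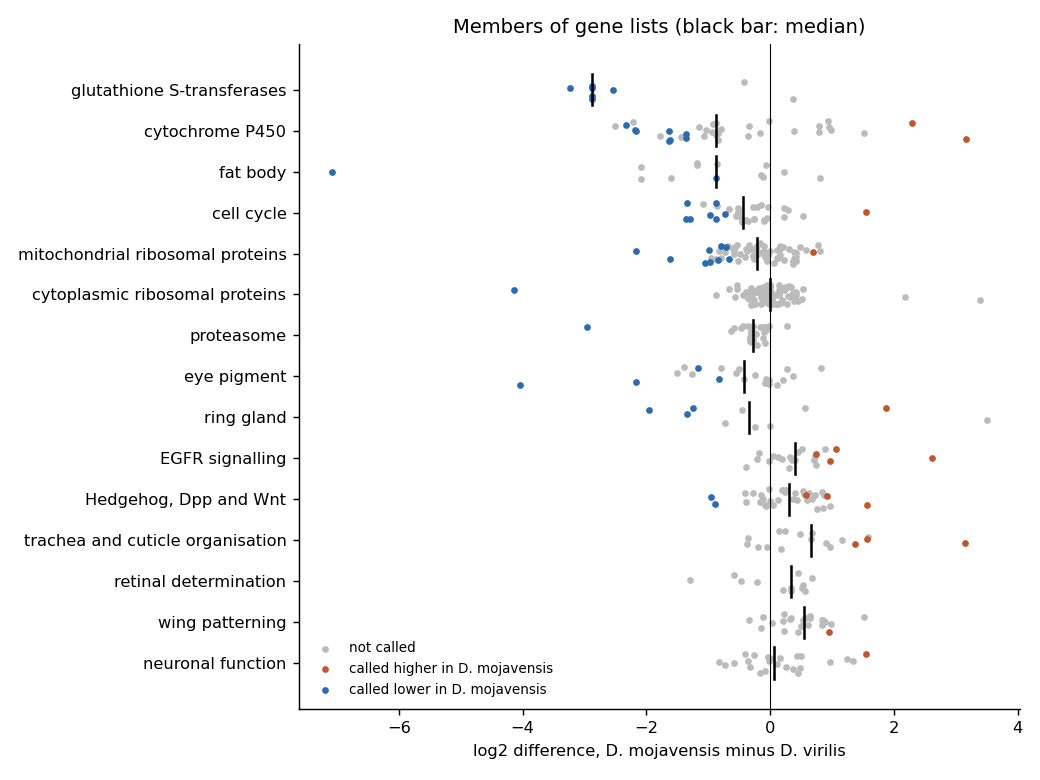
Each point is a tested row of a gene list, placed by its log2 difference between D. mojavensis and D. virilis, with the list's median as a black bar and called rows in colour. The glutathione S-transferases centre on -2.88, the value of 4 rows that carry 1 gene, while the cytoplasmic ribosomal proteins centre on -0.01.

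Cell cycle genes were lower in D. mojavensis for 7 of 34 tested, with 1 higher, and 29 of the 34 differences were negative (23.5% called, beside 13.2% of all genes, with a median log2 difference of -0.44). cdc2, the mitotic cyclin-dependent kinase, was at 170, 205 and 127 in D. mojavensis and at 491, 415 and 354 in D. virilis (log2 difference -1.34, SE 0.15, limma adjusted p = 0.0164). ial, the Aurora B kinase, was at 28.3, 45.7 and 22.7 against 75.4, 87.7 and 68.7. The others were aur (Aurora A), the spindle checkpoint gene Bub3, mus209 (PCNA), the replicative helicase subunit dpa, and Orc5 of the origin recognition complex. None of the 7 had overlapping species ranges, which also held for 957 of the 1169 called genes and 30.2% of all tested genes. CycD, the G1 cyclin, was at 146, 130 and 150 against 60.3, 46.2 and 39.5. Its coding lengths of 606 and 1179 bases differ. The CycD difference was 1.55 with edgeR and length as an offset (adjusted p = 0.0287), but 0.59 with edgeR (adjusted p = 0.119) and 0.65 with DESeq2 (adjusted p = 0.0727) without length, so that call depends on whether length enters the test. With 1 library left out, from 0 (without the D. virilis eye-antennal disc) to 5 genes were called and the median ran from -0.55 to -0.30.

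Of 71 mitochondrial ribosomal protein genes, 9 were lower and 1 higher (14.1%, close to the 13.2% of all genes), and the median log2 difference was -0.21. mRpL55 was at 28.6, 40.1 and 43.2 against 132, 108 and 105 at a coding length of 324 bases in both species, while mRpL4, at 12.7, 11.5 and 12.5 against 73.7, 57.7 and 47.6, has coding lengths of 2736 and 897 bases and did not pass with edgeR on read counts without length (log2 difference -0.66, adjusted p = 0.101). With 1 library left out, the median of this list ran from -0.28 to 0.02, so its sign was not steady, and from 0 to 6 genes were called. Among 30 proteasome rows only Pros35, now named Prosalpha6, was called (3.33%). This subunit gene of the catalytic core stood at 64.9, 52.6 and 53.2 in D. mojavensis against 543, 385 and 433 in D. virilis (log2 difference -2.97, SE 0.12, limma adjusted p = 0.00364). The median of the list was -0.27, and ran from -0.36 to -0.13 with 1 library left out. Among translation factors and tRNA synthetases, 5 of 47 were lower and 1 higher (12.8%, near the 13.2% of all genes). The lower genes include the initiation factor subunits eIF2B-beta and eIF2B-alpha, and the higher one is Ef1beta, an elongation factor subunit. Of this list, from 0 (without either wing disc) to 4 were called with 1 library left out.

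Receptor tyrosine kinase signalling gave calls in the other direction in the main test. In the EGFR pathway, which drives photoreceptor recruitment in the eye and vein formation in the wing, 4 of 21 genes were higher and none lower (19% called, beside 13.2% of all genes, with a median log2 difference of 0.40). The ligand gene grk, which acts in D. melanogaster oogenesis, was at 14.4, 10.4 and 33.7 in D. mojavensis against 2.23, 1.14 and 2.79 (log2 difference 2.62, SE 0.31, limma adjusted p = 0.0170). The receptor gene Egfr was at 112, 187 and 31.0 against 52.4, 124 and 20.9, higher in each tissue. The nuclear repressor gene aop was at 124, 65.4 and 51.9 against 46.7, 37.2 and 31.7, and edl, an antagonist of such ETS factors, at 36.5, 30.7 and 28.1 against 16.6, 11.3 and 16.3. The ligand spi, at 193, 198 and 184 against 240, 173 and 265, and Ras85D, at 211, 213 and 239 against 248, 244 and 260, did not pass the test. With 1 library left out, from 0 (without either eye-antennal disc) to 3 genes were called, and the median ran from 0.21 to 0.62. edgeR with length as an offset called 1 of the 21, as higher, beside 6.89% of all genes. The median log2 difference was then 0.44.

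In the Hedgehog, Dpp and Wnt pathways, 3 of 36 genes were higher and 2 lower, a share of 13.9% that is near the 13.2% of all genes. From 0 (without either eye-antennal disc) to 3 were called with 1 library left out. The Hedgehog effector ci was at 242, 289 and 66.1 in D. mojavensis against 119, 139 and 40.6 (log2 difference 0.92, SE 0.14, limma adjusted p = 0.0226). Wnt2, a secreted ligand, was at 31.8, 61.9 and 9.19 against 11.0, 15.4 and 3.13, and dlp, a glypican that shapes ligand spread, at 102, 105 and 59.1 against 70.8, 70.8 and 37.1. wls, which carries Wnt proteins to the cell surface, was lower at 94.4, 126 and 132 against 219, 227 and 229, as was the BMP ligand gbb. Of the Notch pathway, the target genes malpha and HLHm7 of the Enhancer of split complex were higher, with log2 differences of 0.99 and 0.86, and none of the 25 was lower (8% called). Leaving out 1 library at a time gave from 0 to 3 called Notch pathway genes.

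Patterning genes that define the tissues were tested as several lists, beside 13.2% of all genes called. None of 12 retinal determination genes was called, with a median log2 difference of 0.34. The eye selector ey was at 57.6 and 42.3 in the eye-antennal discs of D. mojavensis and D. virilis, and eya at 119 and 83.2. Of 24 wing patterning genes, inv alone was called (log2 difference 0.95), with coding lengths of 924 and 1833 bases. The inv difference was 0.01 with edgeR on read counts without length (adjusted p = 0.974) and did not pass with length as an offset (adjusted p = 0.0632). Of the wing genes, 21 of the 24 differences were positive. Among 13 antennal genes, Dll, which specifies distal limb and antenna, was at 49.2, 67.5 and 28.1 against 18, 39.2 and 17.1, and bab1 was called too (15.4%). No antennal or wing patterning gene was called with any 1 library left out. sca, a secreted factor that spaces photoreceptor clusters, was the only one called among 23 photoreceptor and furrow genes. The wing markers were higher in the D. mojavensis eye-antennal disc as given above, and their part in these differences was not tested. None of 8 Hox genes and none of 17 glial genes was called, and of 24 neuronal genes only Snap25, a synaptic fusion protein gene, was, at 30.5, 8.31 and 124 against 7.01, 2.54 and 49.9.

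In the main test, pigment and hormone genes gave calls mostly in one direction. Of 21 eye pigment genes, 4 were lower and none higher (19% called, beside 13.2% of all genes, with a median log2 difference of -0.42). Besides Pu these were or, a subunit of the adaptor complex that sorts pigment granule cargo, at 52.9, 45.1 and 44.5 against 119, 100 and 103, ras, a purine synthesis enzyme, and Hn, the phenylalanine hydroxylase gene. The transporter gene w, at 2.36, 0.336 and 5.28 against 10.1, 0.975 and 3.00, did not pass the test. With 1 library left out, at most 2 of the pigment genes were called, and none without the D. virilis eye-antennal disc. edgeR with length as an offset called 1 of 17 pigment genes, as lower, beside 6.89% of all genes. The median log2 difference of these 17 was -0.10. Of 10 ring gland genes, phm and dib, P450 enzymes of ecdysone synthesis, and jhamt, an enzyme of juvenile hormone synthesis, were lower. With 1 gene higher, 40% of the list was called, beside 13.2% of all genes. From 0 (without either eye-antennal disc) to 3 were called with 1 library left out. With quantile normalisation of the libraries, 2 were higher and 2 lower. phm was at 9.33, 0.300 and 6.74 against 42.3, 3.11 and 33.3 (log2 difference -1.96, SE 0.26, limma adjusted p = 0.0196). tor, which encodes the receptor for the prothoracicotropic hormone, was higher at 25.1, 23.2 and 31.1 against 7.07, 7.93 and 4.74, with coding lengths of 5088 and 2790 bases. spok, an earlier-acting gene of ecdysone synthesis, was at 95.0, 0.406 and 86.5 in D. mojavensis and at 0.542, 0.393 and 2.73 in D. virilis. It was high in the eye-antennal disc and brain libraries of one species and near 0 in the wing discs of both, and it did not pass the test over tissues (log2 difference 3.51, SE 1.15, limma adjusted p = 0.104). The ring gland markers sad and Akh were present in both species, sad at 70.9 and 66.8 in the eye-antennal discs and Akh at 97.5 and 106 in the brains.

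Cuticle genes were called in both directions. Of 17 genes of trachea and cuticle organisation, obst-A, the related chitin-binding gene Gasp, and tyn, a zona pellucida domain gene, were higher and none was lower (17.6% called, beside 13.2% of all genes, with a median log2 difference of 0.66). Between 1 (without either eye-antennal disc) and 4 were called with 1 library left out. Among 34 cuticle proteins, TwdlE, Cpr12A and Cpr60D were higher and Edg91, Ccp84Ag and Cpr78E lower, again 17.6%, but from 0 (without either eye-antennal disc) to 10 were called with 1 library left out. Edg91, an ecdysone-dependent cuticle gene, was at 4.83, 10.1 and 1.42 against 82.2, 45.4 and 15.0. In central metabolism, Gpdh, now Gpdh1, the glycerol-3-phosphate dehydrogenase gene, was higher at 20.3, 12.4 and 28.5 against 3.99, 2.48 and 4.48, from coding lengths of 1083 bases in both (log2 difference 2.16, SE 0.25, limma adjusted p = 0.0164). Fdh, which oxidises formaldehyde bound to glutathione, was higher at 153, 168 and 121 against 56.7, 66.8 and 73.5, and Zw, glucose-6-phosphate dehydrogenase, lower. Of 15 glycolysis genes, 2 were higher and 1 lower (20% called, beside 13.2% of all genes). Of 11 genes of alcohol and acetaldehyde metabolism, 2 were higher and 1 lower (27.3% called). In small RNA pathways, the RNA interference genes r2d2 and AGO2 were lower, r2d2 at 25.0, 23.5 and 34.7 against 73.3, 77.6 and 91.4, as was tej of the piRNA pathway, while tud was higher. These were the calls among 20 tested small RNA rows (20%, beside 13.2% of all genes).

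The 7 other lines show on which side a difference lies. Of the 975 called genes with a value in all 27 libraries, D. virilis alone lay outside the range of the other lines in all 3 tissues for 302 (31.0%) and D. mojavensis alone for 209 (21.4%), against 6.41% and 7.03% of the genes not called. For 437, neither did. The balance differed by direction. Among 346 genes higher in D. mojavensis, D. mojavensis alone was outside for 101 (29.2%) and D. virilis alone for 63 (18.2%), while among 629 lower genes these were 108 (17.2%) and 239 (38%). Both species were outside on opposite sides for 13 genes. The choice of called genes favours positions outside the range, so the shares are a description.

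**Figure D4:**
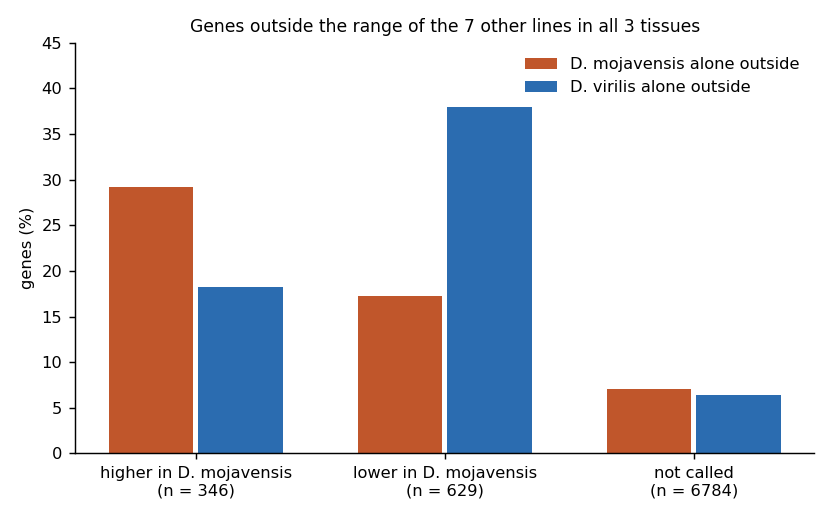
Bars give the percentage of genes for which only D. mojavensis (orange) or only D. virilis (blue) lay outside the range of the 7 other lines in all 3 tissues, for genes called higher, called lower and not called. D. virilis alone was outside for 38% of the genes lower in D. mojavensis.

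The size of the difference was not the same in the 3 pairs of libraries. With 1 library per tissue and species, an effect of the tissue and one of a single library cannot be told apart. The median absolute log2 difference was 0.62 in the eye-antennal disc, 0.46 in the wing disc and 0.41 in the brain, and 2642 (29.8%), 1939 (21.9%) and 1530 (17.2%) genes differed at least 2-fold. At least 2-fold differences of the same sign in all 3 tissues were seen for 636 genes. Differences in one tissue went with those in another with Pearson's r between 0.56 and 0.58 across the 8872 genes, which are not independent replicates. Over 7677 genes and all 36 pairs of lines, ranked from the smallest median absolute difference, D. mojavensis and D. virilis were 29th in the eye-antennal disc, 12th in the wing disc and 7th in the brain. The D. virilis eye-antennal library was far from every line, since its other pairs ranked from 25 to 36, while those of D. mojavensis ranked from 11 to 28.

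**Figure D5:**
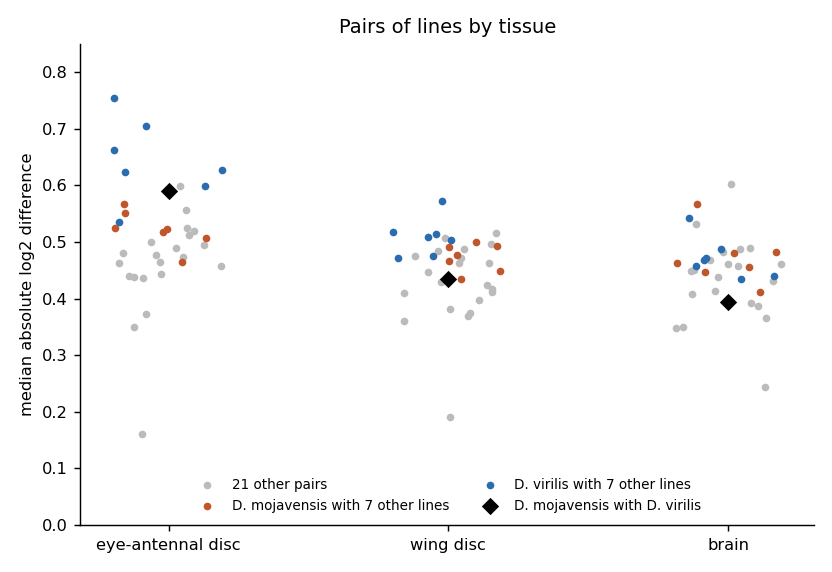
Each point is a pair of lines, placed by the median absolute log2 difference over 7677 genes in each tissue. The pair of D. mojavensis and D. virilis (black diamond) lies at 0.59 in the eye-antennal disc, 0.43 in the wing disc and 0.39 in the brain.

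Gene models touch these values. Coding lengths of the species differed by over 1.5-fold for 60 of 925 called genes with read counts (6.49%) and for 181 of 6438 not called (2.81%). Among 6537 genes whose lengths lay within 10%, 292 were called higher and 488 lower. In the D. melanogaster annotation, the share of genes called ran from 12% on chromosome arm 3L to 16.2% on the small chromosome 4, beside 13.2% of all genes. Of the rows set apart, RpL27, a core ribosomal protein gene, was at 4725, 5311 and 3527 in D. mojavensis and listed at 0 in D. virilis, as was sqh, the regulatory light chain of nonmuscle myosin, at 410, 411 and 358. The rows Cys, CG31313 and CG8066 were listed at 0 in D. mojavensis and carried 1 shared set of values in D. virilis, at 291, 227 and 272.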

How the data were processed

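Reads were aligned with TopHat2 2.0 and counted with HTSeq, per the submitters' processing notes. No genome build or HTSeq version was given in the sources used here. Deposited were a read count per gene and library and 1 table of normalised signal across lines. Matching the deposited signal to the counts by value showed it to be the count divided by coding length and a library factor: of rows tied with at least 100 reads, 7248 of 7249 in D. mojavensis and 8039 of 8039 in D. virilis gave a whole length divisible by 3 (tolerance 0.01 bases). A tie needed at least 30 reads in lowest terms and reads in each tissue. This last rule was added after implausible lengths, and the first count test results, had been seen.

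The main test was limma 3.58.1 (R 4.3.3, intensity trend) on log2(signal + 1) with tissue as a block and 2 residual degrees of freedom. Fold changes are on that scale, which understates low genes. p-values were adjusted by Benjamini-Hochberg over 8872 rows, with a threshold of 0.05. Tissue pairs the samples by design (correlations of same-tissue deviations were 0.36, 0.70 and 0.81). Alternatives were pseudocounts, minimums, scalings, variance models, left-out libraries, edgeR 4.0.16 and DESeq2 1.42.0 on recovered counts, and a fit over all 27 libraries. The test was also run on simulated data. No outcome of that run is given here, so it says nothing about the error rate of these calls.

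Named genes were the 10 with the largest difference in each direction among called rows with a mean of at least 10, 3 more known by CG number, and up to 2 called members per list. Further list members were named after their values were seen. Members and lists were chosen with earlier results of these data known. The lists are used as first written, misfiled members included. Older symbols were matched to current names for 1969 rows, and 127 matched none.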

Additional observations from a re-analysis of the deposited data

How the results depend on the processing

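No called gene changed sign under another pseudocount, minimum, scaling, variance model or left-out library, or with all 27 libraries. Of these settings, only the scalings could have changed a sign. Each called gene had the same sign in every tissue, and the other settings keep that sign by construction. Without the replicate block, which leaves out tissue, 417 genes were called (131 higher, 286 lower, 35 list members). Without the intensity trend, 715 were called (232, 483, 75). With 1 library left out, calls ran from 69 to 780 in all, from 32 to 303 higher, from 37 to 492 lower and from 10 to 80 in the lists. All 27 libraries gave 3016 of 7759 (1338, 1678, 282). edgeR on read counts gave 721 of 7363 (299, 422, 67), and with coding length as an offset 507 (195, 312, 42). DESeq2 called 744 higher, 52.0% of its calls against 35.1% in the main result. These count tests leave out ties of low counts, a rule set after seeing the data. With every tie kept, edgeR called 552 (215, 337, 48), edgeR with length 336 (124, 212, 30), and DESeq2 734 higher. limma on the 7363 rows with counts, also added after seeing the data, called 1033. Among the 925 called genes with counts, 7 changed sign with edgeR without length and 6 with DESeq2, and none with edgeR and length. Of the genes named in the text by rule, 1 did: PyK, with a log2 difference of 0.78, was at -0.047 with edgeR without length (-0.060 with every tie kept), and its coding lengths are 1608 and 2841 bases. Depth limits low genes more in D. mojavensis, and with 1 library per tissue no difference within a single tissue could be tested.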

Other observations

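Some rows differed strongly in 1 tissue and little in the others, which the test over tissues does not call. A difference of at least 4-fold in one tissue with under 2-fold in the others was seen for 137 genes in the eye-antennal disc, 85 in the wing disc and 24 in the brain. These are single libraries, so they carry no test. Scr, a Hox gene of the labial and first thoracic segments, was at 33.3 in the D. mojavensis eye-antennal disc and 0.225 in that of D. virilis, but at 10.6 and 8.13 in the brains. Antp, a thoracic Hox gene, was at 10.3 and 1.73 in the eye-antennal discs and at 26.3 and 21.7 in the wing discs. These genes were chosen after their values were seen. The summed wing and brain markers were also higher in that D. mojavensis library, the brain sum mostly through elav.

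Immune and sensory genes gave a few calls in both directions. Of 18 immune rows, 2 were higher and 2 lower (22.2% called, beside 13.2% of all genes). The antibacterial peptide rows AttA and AttB, 1 gene in both species, were at 3.81, 2.60 and 4.27 in D. mojavensis against 0, 0.136 and 0.540 in D. virilis. Of 28 chemosensory rows, the bitter receptor gene Gr66a was higher, at 6.45, 4.34 and 7.17 against 0.773, 0.960 and 0.715, and 4 were lower (17.9% called). None of 11 circadian clock genes and none of 15 dosage compensation and sex determination genes was called by limma, with 13.2% called among all genes.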
